A study of Mus musculus with 6 samples.

Results

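Tenocyte-like cells are the cells of the quadriceps libraries that carry the transcripts of tendon cells. They were chosen by the transcripts they held. A cell barcode with at least 500 gene UMIs (unique molecular identifiers, each counting 1 captured transcript) was a member when Tnmd, Chad, Angptl7 and Kera together gave at least 3 UMIs and Fmod at least 1. It also had at most 2 UMIs of the macrophage genes C1qa, C1qb and Tyrobp and at most 1 of the endothelial genes Pecam1 and Cdh5. Of 8427 barcodes, 8258 reached 500 UMIs and 343 were members.

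The cells came from the left quadriceps of male C57BL/6 wild-type mice, 2-3 months old, at day 7. The critical group had a volumetric muscle loss defect of 3 mm, the subcritical group a 2 mm defect, and the uninjured group none. Enzymes (collagenase II with dispase II) freed the cells, and the labels name no sort of the cells. Each group is 1 library made from the pooled cells of 4 animals, so an effect of the defect cannot be told apart from one of the pool, the staining or the library. No test between groups was possible. All intervals below are 95% intervals that cover counting error only.

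Tenocytes are the fibroblasts of tendon. They lie in rows between parallel type I collagen fibrils, which they lay down and whose thickness they set with small leucine-rich proteoglycans, and they depend on the transcription factors scleraxis (Scx) and mohawk (Mkx). Tenomodulin (Tnmd) is a membrane protein found mainly in tendon. Chondroadherin (Chad) is a leucine-rich matrix protein of cartilage and tendon that binds cells and collagen, fibromodulin (Fmod) and keratocan (Kera) are collagen-binding proteoglycans, and Angptl7 is a secreted angiopoietin-like protein. In the quadriceps, tendon cells belong to the tendon and aponeurosis that carry the force of the muscle fibres to bone. Muscle wounds also fill with fibroblasts that make a provisional matrix rich in periostin and fibronectin.

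The start regions of 3 of the genes used to choose the cells are shown because these genes diverged in the wounded muscles: Tnmd differed by less than 2-fold between wounded and uninjured members, while Chad and Angptl7 were lower in the wounds. The letters CANNTG, the general form of the E-box to which basic helix-loop-helix factors such as scleraxis bind, are in capitals. Each line runs 5′ to 3′ on the strand of the gene and covers 250 bases before to 50 after the start of transcription (RefSeq, build GRCm38.p6, at chrX:133850758-133851057 on the plus strand, chr11:94564797-94565096 on the plus strand and chr4:148500413-148500712 on the minus strand).
Tnmd: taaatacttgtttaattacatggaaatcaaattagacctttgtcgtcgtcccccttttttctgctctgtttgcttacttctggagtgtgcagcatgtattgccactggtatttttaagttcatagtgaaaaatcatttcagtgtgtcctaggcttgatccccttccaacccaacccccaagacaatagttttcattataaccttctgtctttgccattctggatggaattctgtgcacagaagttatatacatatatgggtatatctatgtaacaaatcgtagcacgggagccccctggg
Chad: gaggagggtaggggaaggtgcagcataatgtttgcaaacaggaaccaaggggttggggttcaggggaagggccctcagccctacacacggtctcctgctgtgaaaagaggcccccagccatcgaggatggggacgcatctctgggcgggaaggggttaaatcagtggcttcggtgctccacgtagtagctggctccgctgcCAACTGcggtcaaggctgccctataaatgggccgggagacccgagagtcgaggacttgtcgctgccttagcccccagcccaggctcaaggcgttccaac
Angptl7: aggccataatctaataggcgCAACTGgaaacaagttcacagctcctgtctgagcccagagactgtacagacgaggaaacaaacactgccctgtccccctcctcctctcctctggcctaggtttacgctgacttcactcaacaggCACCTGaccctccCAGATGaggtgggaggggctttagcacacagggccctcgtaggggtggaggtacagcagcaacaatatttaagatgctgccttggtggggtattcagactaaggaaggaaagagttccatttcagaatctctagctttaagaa
CANNTG reads the same on both strands, so 1 search covers both. It was found 0 times in the window of Tnmd, 1 time in that of Chad and 3 times in that of Angptl7. The windows of Kera and Fmod held it 0 and 1 times. Of 32851 mouse promoter windows of the same length, 72.3% held it at least once, with a median of 1. A match is a run of letters and not a known site, and no match says only that the letters are not in this window.

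The libraries held 3161 barcodes and 7138662 gene UMIs (critical), 3071 and 4954129 (subcritical) and 2195 and 5681346 (uninjured). Between 10 and 16 barcode sequences were shared by any 2 libraries, and none of them was a member in both. Members were deeper than most cells, with a median of 4585 UMIs in the critical, 3188.5 in the subcritical and 5964 in the uninjured library. Summed over members, depth came to 851847, 427516 and 186160 UMIs. Hashtags assigned only 7, 4 and 0 members to an animal, so values per animal were not computed. Of the macrophage-like cells defined below, 74.1%, 71.5% and 83.0% had such a tag. In the uninjured library those cells held more of neutrophil than of macrophage markers.

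Members made up 182 of 3161 barcodes in the critical library, 5.76% (interval 4.97 to 6.63). In the subcritical library they were 134 of 2902 barcodes with at least 500 UMIs, 4.62% (3.88 to 5.45), and in the uninjured library 27 of 2195, 1.23% (0.812 to 1.78). The share was thus higher in both wounded muscles than in uninjured muscle, and the intervals of the wounded libraries overlapped. Wounded muscle also held more cells with at least 5 UMIs of C1qa, C1qb and Tyrobp, here called macrophage-like, with 818, 875 and 165 of them. In the uninjured library the name goes against their markers. There 10 neutrophil markers summed to 134350 CPM and 10 macrophage markers to 18851 CPM. In the critical and subcritical libraries neutrophil markers summed to 297 and 1436 CPM, and macrophage markers to 64923 and 75978 CPM. Among barcodes with at most 2 UMIs of C1qa, C1qb and Tyrobp, members were 8.27%, 7.09% and 1.34%. Fibroblast-like cells were those with at least 1 UMI of Pdgfra, at least 10 of Col1a1, Col1a2 and Dcn together, and the same limits on macrophage and endothelial genes. Members were 42.5%, 43.5% and 22.7% of all members and fibroblast-like cells. For comparisons of genes, fibroblast-like cells with any UMI of Tnmd, Chad, Angptl7 or Kera were left out, and 207, 151 and 79 remained. How much of the shares reflects the release of cells from each tissue was not tested.

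The label did not hold for some members. Tnmd, whose UMIs counted toward membership, was found in 177 of 182 critical, 127 of 134 subcritical and 21 of 27 uninjured members. The rule favours this by construction, so it does not bear on the label. Scx, which the rule did not use, was found in 137 of 182, 100 of 134 and 16 of 27. At least 10 UMIs of cartilage transcripts (Col2a1, Col9a1, Col9a2, Col9a3, Snorc and Cytl1 together) were carried by 2, 2 and 6 members, none of which had Tnmd. The 6 uninjured ones had 16 to 372 UMIs of Chad and 0 to 806 of Col2a1, the collagen of cartilage. Another 2 uninjured members had 93 and 43 UMIs of Myh11, the myosin of smooth muscle, beside 4 and 3 UMIs of Tnmd. These cells entered through the rule but go against the name of tenocyte. They were picked out after their values were seen, and the text says whether a value is over all members or over the remaining members, that is without these cells. The remaining members numbered 180, 132 and 19, which is 5.69%, 4.55% and 0.866% of barcodes.

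The rule itself set who was a member near its limits. With 2 summed UMIs, just outside, stood 21, 9 and 5 cells, and with 3, just inside, 12, 16 and 1 cells. A further 20, 20 and 14 cells had enough of the 4 genes but no Fmod. Macrophage genes kept out 4, 3 and 2 cells, and endothelial genes 5, 2 and 1.

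The genes that chose the cells are described first, with no test. Tnmd stood at 3586 counts per 1000000 (CPM) of the members' UMIs in the critical, 3637 in the subcritical and 2648 in the uninjured library. Among the remaining members it was 3609, 3665 and 3956 CPM, with medians of 12, 9 and 15 UMIs per cell and highest values of 77, 60 and 94. In the remaining members, a few of which (3, 5 and 0) had no Tnmd, the log2 fold was −0.13 (−0.27 to 0.01) in critical over uninjured and −0.11 (−0.26 to 0.04) in subcritical over uninjured. Over all members the 3 highest cells held 6.97%, 9.90% and 51.7% of its UMIs, and with them left out Tnmd was past 2-fold higher in the wounds, at log2 1.38 and 1.36. Log2 folds here compare CPM plus a pseudocount of 1 CPM, which understates the change of genes of low level.

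Chad was far lower in the wounded muscles. It stood at 416 CPM in critical, 655 in subcritical and 8439 in uninjured members. The cells with cartilage transcripts held much of it, and without them the levels were 215, 580 and 3752 CPM. The log2 fold of the remaining members was −4.12 (−4.38 to −3.87) in critical and −2.69 (−2.92 to −2.47) in subcritical over uninjured, against −4.34 and −3.69 over all members. Cell by cell the libraries overlapped: the median was 0 UMIs in both wounded libraries and 12 in the uninjured one, with highest values of 19, 51 and 142. Only 36 of 180 critical remaining members (20.0%) had any Chad, against 28.8% of the subcritical and 89.5% of the uninjured. With each cell thinned to 2244 UMIs, which leaves out 22, 41 and 3 shallower cells, these shares were 12.7%, 22.0% and 93.8%.

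Angptl7 and the proteoglycans went with Chad. Angptl7 stood at 96.3, 400 and 1515 CPM over all members, and at 96.9, 403 and 2295 CPM in the remaining members. Its level came from few cells, since the 3 highest held 43.9%, 70.2% and 67.0% of its UMIs. Kera was at 216, 250 and 940 CPM over all members and 217, 252 and 1424 in the remaining members, log2 −2.71 and −2.49 over uninjured. Fmod stood at 2668, 2978 and 10206 CPM, and in the remaining members at a median of 8.5, 5 and 73 UMIs per cell, log2 −2.39 and −2.21. Kera was found in 76 of 180 critical, 51 of 132 subcritical and 15 of 19 uninjured cells of the remaining members. Tnmd without any Chad was seen in 143 of 182 critical, 91 of 134 subcritical and 4 of 27 uninjured members.

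**Figure D1:**
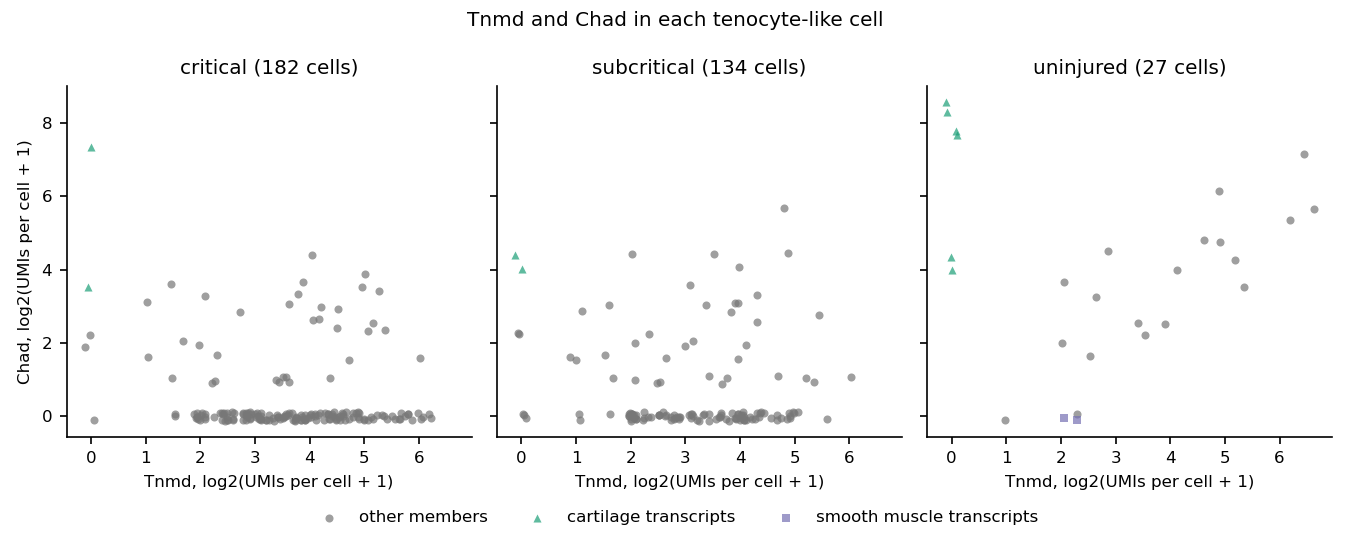
UMIs of Tnmd (horizontal) and Chad (vertical) in each member, both as log2(UMIs + 1) with a small jitter, in the critical, subcritical and uninjured library from left to right; colours mark the cells with cartilage or smooth muscle transcripts. In the wounded libraries most cells lie along the bottom, with Tnmd and no Chad (143 of 182 and 91 of 134), while uninjured cells spread upward and the cells with cartilage transcripts have Chad and no Tnmd.

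Across all genes, the wounded muscles differed from the uninjured one far more than from each other. A gene was counted when its log2 fold was past 1 either way, that is past 2-fold, among genes with at least 30 UMIs over both libraries. In critical over uninjured members, 1083 of 4525 genes passed, 23.9%, of which 15.7% of all tested were higher and 8.24% lower. In subcritical over uninjured members 558 of 2887 passed, 19.3% (11.4% higher and 7.97% lower). In critical over subcritical members 186 of 5202 passed, 3.58% (2.29% higher and 1.29% lower). Over the remaining members the shares were 25.3% (17.7% higher and 7.60% lower), 19.3% (12.5% and 6.75%) and 3.58% (2.30% and 1.28%). The median log2 fold over all genes was 0.16, 0.12 and 0.01. The filter sums UMIs of unequal depth, so it takes in genes high in the deeper wounded members more readily. With at least 100 UMIs, 61.6%, 50.6% and 42.9% of the genes past 2-fold were higher. Counts of listed genes below are to be read beside the shares of all genes. Both comparisons with uninjured muscle use the same 27 cells, and for most genes the 3 highest of them held much of the level, which is given where it decides a value.

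Scx and Mkx, which tendon cells depend on, differed by less than 2-fold between the libraries. Scx stood at 829, 996 and 886 CPM over all members, log2 −0.10 and 0.17 over uninjured. In the remaining members it was 834 CPM in critical, 1004 in subcritical and 1343 in uninjured cells, log2 −0.69 (−0.93 to −0.43) and −0.42 (−0.68 to −0.15), with medians of 2.5, 2 and 4 UMIs per cell. Over all members Mkx was at 55.2, 46.8 and 59.1 CPM, with intervals of the folds that span 0. With the 3 highest cells of each library left out, Scx over all members was at log2 1.11 and 1.39. Of the list of 12 tendon transcription factors, 9 were measured in critical over uninjured members, 1 of them past 2-fold higher and 3 lower. Among the remaining members 2 of 9 were higher and 1 lower. In subcritical over uninjured members 0 of 6 were higher and 2 lower, and 1 of 4 higher and 0 lower without the cells set aside. Sox9, which tendon shares with cartilage, reversed direction between these sets: log2 −1.64 over all members and 2.13 (−0.32 to 7.61) in the remaining members, where the uninjured library held 1 UMI.

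The collagens of the tendon fibril were high in the 3 libraries. Col1a1, a chain of type I collagen, stood at 35536 CPM in critical, 36197 in subcritical and 17378 in uninjured members. Without the cells set aside it was 35713, 36469 and 23906 CPM, log2 0.58 (0.52 to 0.63) and 0.61 (0.55 to 0.67), below 2-fold. Its partner Col1a2 was at 15923, 16224 and 16149 CPM in the remaining members, log2 −0.02 and 0.01. Col3a1, the collagen of fresh scar, was at 12408, 10532 and 6772 CPM, log2 0.87 and 0.64.

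Collagens that sit on or start the fibril were higher in places. Col5a1, which helps to start fibrils, was at 2019, 1447 and 838 CPM in the remaining members, log2 1.27 (0.98 to 1.57) in critical and 0.79 (0.48 to 1.10) in subcritical over uninjured. Col12a1, a fibril-surface collagen, was at 2067, 1766 and 1180 CPM, log2 0.81 and 0.58. Col8a1, a short-chain collagen, was at 447, 375 and 97.7 CPM (log2 2.18 and 1.93), and Col14a1 at 255, 233 and 73.3 CPM (log2 1.79 and 1.66). Col22a1, a collagen of the junction between muscle and tendon, was counted in wounded but not in uninjured members, at 34.0 and 72.5 CPM against 0 in uninjured members, at least 2.11-fold and 4.50-fold higher when 3 counts are put in place of 0. Its 3 highest cells held 58.6% and 51.6% of it. Of 18 collagen chains, 16 were measured in critical over uninjured remaining members, with 4 past 2-fold higher, 0 lower and a median log2 of 0.50. In subcritical over uninjured 17 were measured, with 4 higher, 0 lower and a median of 0.29. Over all genes, 17.7% and 12.5% were higher in these comparisons, so the collagen counts are given as description only. Over all members the counts were 6 higher and 2 lower of 16, and 7 higher and 2 lower of 17.

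Enzymes that finish collagen differed in direction. Lysyl oxidase (Lox), which crosslinks collagen, was at 871, 728 and 2059 CPM in the remaining members, log2 −1.24 (−1.45 to −1.03) and −1.50 (−1.74 to −1.25). Its relative Loxl2 was at 331, 389 and 887 CPM, log2 −1.42 and −1.19, and Loxl4 at 5.91, 23.6 and 187 CPM, log2 −4.77 and −2.94. Over all members Lox and Loxl2 were below 2-fold (log2 −0.67 and −0.93, and −0.84 and −0.61). The prolyl hydroxylase subunit P4ha3 was higher, at 183, 163 and 32.6 CPM, log2 2.46 and 2.29, from 4 UMIs in uninjured cells. The Lox values also rested on few cells, since over all members, with the 3 highest of each library left out, Lox was at log2 0.20 and −0.07 and Loxl2 at 0.22 and 0.36. Altogether the 22 genes of collagen processing showed no common direction. In critical over uninjured remaining members 4 were higher and 3 lower of 20, and in subcritical 2 and 3 of 19. Over all members the counts were 3 and 2 of 20, and 2 and 2 of 21. For comparison, 17.7% and 12.5% of all genes were higher in the remaining members, and 7.60% and 6.75% lower.

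The small leucine-rich proteoglycans, which coat collagen fibrils and limit their width, split as well. Decorin (Dcn) was at 4776, 6400 and 19373 CPM in the remaining members, log2 −2.02 (−2.09 to −1.95) and −1.60 (−1.68 to −1.52), and at 4768, 6393 and 13327 CPM over all members. Prelp was at 146, 290 and 1945 CPM, log2 −3.72 and −2.74. Asporin (Aspn), which binds collagen in competition with decorin, was higher at 644, 450 and 212 CPM, log2 1.60 and 1.09. Lumican (Lum) was also higher, at 310, 354 and 114 CPM, log2 1.43 and 1.62, while biglycan (Bgn) was at 7372, 6449 and 4330 CPM, below 2-fold. Of 12 listed proteoglycans besides the rule genes, 2 were higher and 3 lower of 8 in critical over uninjured remaining members. In subcritical over uninjured 2 were higher and 3 lower of 7 (2 and 4 of 9, and 2 and 3 of 7, over all members). Among all genes 17.7% and 12.5% were higher in the remaining members, and 7.60% and 6.75% lower.

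Several other proteins of tendon matrix were lower. Thrombospondin-4 (Thbs4), which arranges collagen in tendon, was at 6760, 8061 and 21253 CPM in the remaining members, log2 −1.65 (−1.72 to −1.59) and −1.40 (−1.47 to −1.32). Over all members it was at 6724, 8000 and 14181 CPM, log2 −1.08 and −0.83. Comp, the cartilage oligomeric matrix protein that tendon also makes, was at 932, 1228 and 3248 CPM (log2 −1.80 and −1.40), and over all members at 1002, 1310 and 6924 CPM. Cilp2, a protein of cartilage and tendon matrix, was at 191, 351 and 1400 CPM, log2 −2.86 and −1.99. Lubricin (Prg4), which lets tendon glide, was at 430, 500 and 4216 CPM, log2 −3.29 and −3.07, and tenascin-X (Tnxb) at 33.1, 94.3 and 480 CPM, log2 −3.82 and −2.34. In the remaining members these genes were lowest in the critical library, with the subcritical library between it and uninjured muscle. For Prg4 the wounds lay close together, and their order turned with the highest cells left out. Single cells weighed on some of them: over all members, with the 3 highest cells of each library left out for each gene, Thbs4 was at log2 −0.25 and −0.10, while Comp (−1.90 and −1.56), Cilp2 (−2.17 and −1.57) and Prg4 (−2.53 and −2.62) were still past 2-fold lower.

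Other genes of this list went either way. Fibulin-1 (Fbln1), an elastic-fibre protein, was lower in the remaining members, at log2 −2.92 and −2.20. Elastin (Eln) was at log2 −1.72 and −1.63, but over all members, with the 3 highest cells of each library left out, it was at −0.12 and 0.78. Fibrillin-2 (Fbn2), the fibrillin of growing tissue, was at 150, 111 and 8.14 CPM, log2 4.05 (1.70 to 9.52) and 3.61 (1.22 to 9.10), from 1 UMI in uninjured cells. Dermatopontin (Dpt) and Thbs2 were also higher, at log2 1.67 and 1.88 and at 1.26 and 1.10. Of the 20 other tendon matrix genes, 4 were higher and 8 lower in critical, and 4 higher and 7 lower in subcritical over uninjured remaining members. Over all members 6 were higher and 8 lower, and 4 higher and 7 lower. The shares of all genes over all members were 15.7% higher and 8.24% lower, and 11.4% and 7.97%.

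**Figure D2:**
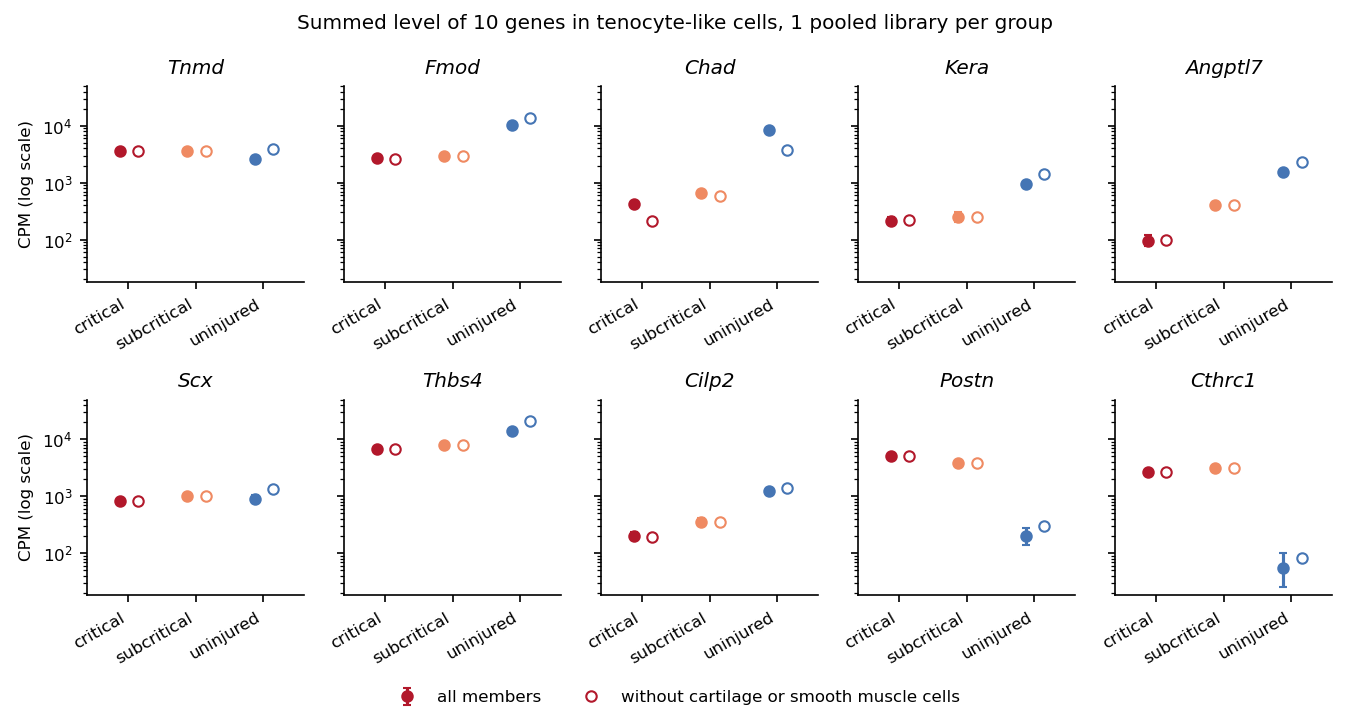
Level of 10 genes in critical, subcritical and uninjured members, as CPM on a log axis; filled points are all members with exact Poisson intervals, and open points leave out the cells with cartilage or smooth muscle transcripts. Tnmd and Scx each differ by less than 2-fold between the 3 libraries, Chad, Fmod, Kera, Angptl7, Thbs4 and Cilp2 are lower in both wounded libraries, and Postn (5103, 3761 and 199 CPM) and Cthrc1 (2690, 3102 and 53.7 CPM) are far higher there.

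Wounded members were high in wound matrix genes. Periostin (Postn), a matricellular protein that crosslinks healing matrix, was at 5103 CPM in critical, 3761 in subcritical and 199 in uninjured members. In the remaining members it was at 5136, 3790 and 301 CPM, log2 4.09 (3.63 to 4.60) and 3.65 (3.18 to 4.17). Cell by cell the medians were 16.5, 7 and 0 UMIs and the highest values 137, 92 and 10. Cthrc1, a collagen-repeat protein secreted in scars, stood at 2705, 3126 and 81.4 CPM, log2 5.04 (4.17 to 6.12) and 5.25 (4.38 to 6.33), with medians of 10, 6.5 and 0 UMIs and highest values of 69, 54 and 7. The cells of the libraries overlapped: 60.6% of critical and 41.7% of subcritical cells had more Postn than the highest uninjured cell, and 62.2% and 47.0% had more Cthrc1.

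The libraries also differed at equal depth. Thinned to 2244 UMIs, 92.4% of critical, 91.2% of subcritical and 18.8% of uninjured remaining members had Cthrc1, against 90.6%, 81.1% and 21.1% unthinned. Endothelial-like cells, which should lack it, had it in 6.50%, 4.35% and 1.72% after thinning. For Postn the thinned shares were 91.8%, 86.8% and 37.5% (92.8%, 78.8% and 42.1% unthinned), against 11.4%, 1.45% and 1.72% in endothelial-like cells.

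Several genes were counted in wounded but in no uninjured member. They included Lrrc15, a surface protein of scar and tumour fibroblasts, at 209 and 199 CPM against 0 in uninjured members. This was at least 13.0-fold and 12.3-fold higher when 3 counts are put in place of 0 (8.61-fold and 8.20-fold in the remaining members). Such bounds cover counting error only. The tenascin Tnn was at 195 and 133 CPM against 0, at least 12.1-fold and 8.27-fold. The protease Adam12 was at 174 and 105 CPM against 0, at least 10.8-fold and 6.53-fold. Chst5, a sulfotransferase of keratan sulfate, the sugar chain that keratocan carries, was at 101 and 93.6 CPM against 0, at least 6.26-fold and 5.81-fold. Angptl4, an angiopoietin-like protein, was at 96.3 and 133 CPM against 0, at least 5.97-fold and 8.27-fold. The collagenase Mmp13 was at 148 and 487 CPM against 0, with most of it in few cells as described below. It was found in 14 of 182 critical and 6 of 134 subcritical members. With 0 of 27, up to 12.8% of uninjured members could have it, so no bound is given. Fibroblast-like cells had Lrrc15 at 198, 127 and 0 CPM but Chst5 at 3.06, 0 and 0 CPM.

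Genes of provisional matrix and its remodelling were higher too. Fibronectin (Fn1) was at 6158, 4978 and 464 CPM in the remaining members, log2 3.73 (3.35 to 4.13) and 3.42 (3.04 to 3.83). The membrane protease Mmp14 was at 1427, 1228 and 73.3 CPM, log2 4.27 and 4.05, and the growth factor pleiotrophin (Ptn) at 1083, 731 and 65.1 CPM, log2 4.04 and 3.47. C1qtnf3, a secreted C1q-like protein of cartilage, was at 3064, 3017 and 708 CPM, log2 2.11 and 2.09. Osteopontin (Spp1) was at 594, 495 and 65.1 CPM, log2 3.17 and 2.91. The imprinted gene Mest was at 1950, 1308 and 16.3 CPM, log2 6.82 (5.05 to 9.95) and 6.24 (4.47 to 9.38), from 2 UMIs in uninjured cells. Mest was not particular to members. Thinned to 2244 UMIs, 70.9%, 61.5% and 0% of the remaining members had it, and 53.7%, 46.4% and 5.15% of endothelial-like cells.

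The levels of contractile genes depended on the smooth muscle cells. Over all members, alpha smooth muscle actin (Acta2) was lower, at 927, 596 and 2627 CPM, and so was Tagln at 770, 620 and 1789 CPM. The 3 highest uninjured cells held 98.0% of Acta2 and 98.5% of Tagln. In the remaining members both were higher: Acta2 at 933, 599 and 163 CPM, log2 2.51 (1.88 to 3.24) and 1.87 (1.22 to 2.61), and Tagln at 775, 625 and 81.4 CPM, log2 3.24 and 2.92. Of 22 activated wound fibroblast genes, 21 were measured, and 15 were past 2-fold higher and 2 lower in critical over uninjured remaining members, with a median log2 of 2.86. In subcritical over uninjured 15 were higher and 1 lower, median 2.87. With the 3 genes that had no uninjured UMI put at their bound, these medians were 2.84 and 2.12. Over all members the counts were 13 and 4 of 21 (median 1.76) and 12 and 3 of 21 (median 1.67). Among all genes 17.7% and 12.5% were higher in the remaining members, and 15.7% and 11.4% over all members. Fibroblast-like cells shifted in the same direction, so the shift is not particular to members. They had 17 higher and 1 lower of 21 in critical over uninjured muscle (median 3.09). In subcritical over uninjured muscle they had 16 higher and 1 lower of 20 (median 2.57). The members of the list that were lower in the remaining members were Ccn5, a matricellular protein, at log2 −2.97 and −2.04, and, in the critical library alone, Ccn2, at −1.80 and −0.62.

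The levels of cartilage genes rested on few cells. Col2a1 was at 121, 309 and 9551 CPM over all members, and at 13.0, 11.8 and 8.14 CPM in the remaining members, where the uninjured library held 1 UMI of it. Aggrecan (Acan), the large proteoglycan that tendon under compression also makes, was at 247, 204 and 543 CPM over all members. In the remaining members it was higher in the wounded muscles, at 246, 198 and 24.4 CPM, log2 3.28 (1.76 to 5.62) and 2.97 (1.42 to 5.33), from 3 UMIs in uninjured cells. Bone sialoprotein (Ibsp), a mineral-binding protein of bone and mineralised tendon insertions, had 0 UMIs in wounded and 66 in uninjured remaining members (537 CPM), at least 152-fold and 76.0-fold lower, and 96.8% of its uninjured UMIs over all members lay in 3 cells. Most of the 12 lowest genes of either comparison with uninjured members lay in the cells set aside. Frzb, a secreted Wnt antagonist, was at 12.9, 16.4 and 1117 CPM over all members (log2 −6.33 and −6.01), with 96.6% of the uninjured UMIs in 3 cells and 1 UMI in the remaining members of each library. Chondromodulin (Cnmd), a relative of tenomodulin, was at 0, 16.4 and 398 CPM over all members and at 0, 9.43 and 24.4 CPM in the remaining members. Of 18 cartilage genes, 1 was higher and 10 lower of 11 over all members in either comparison. Without those cells 3 were higher and 0 lower of 4, and 1 higher and 0 lower of 2.

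**Figure D3:**
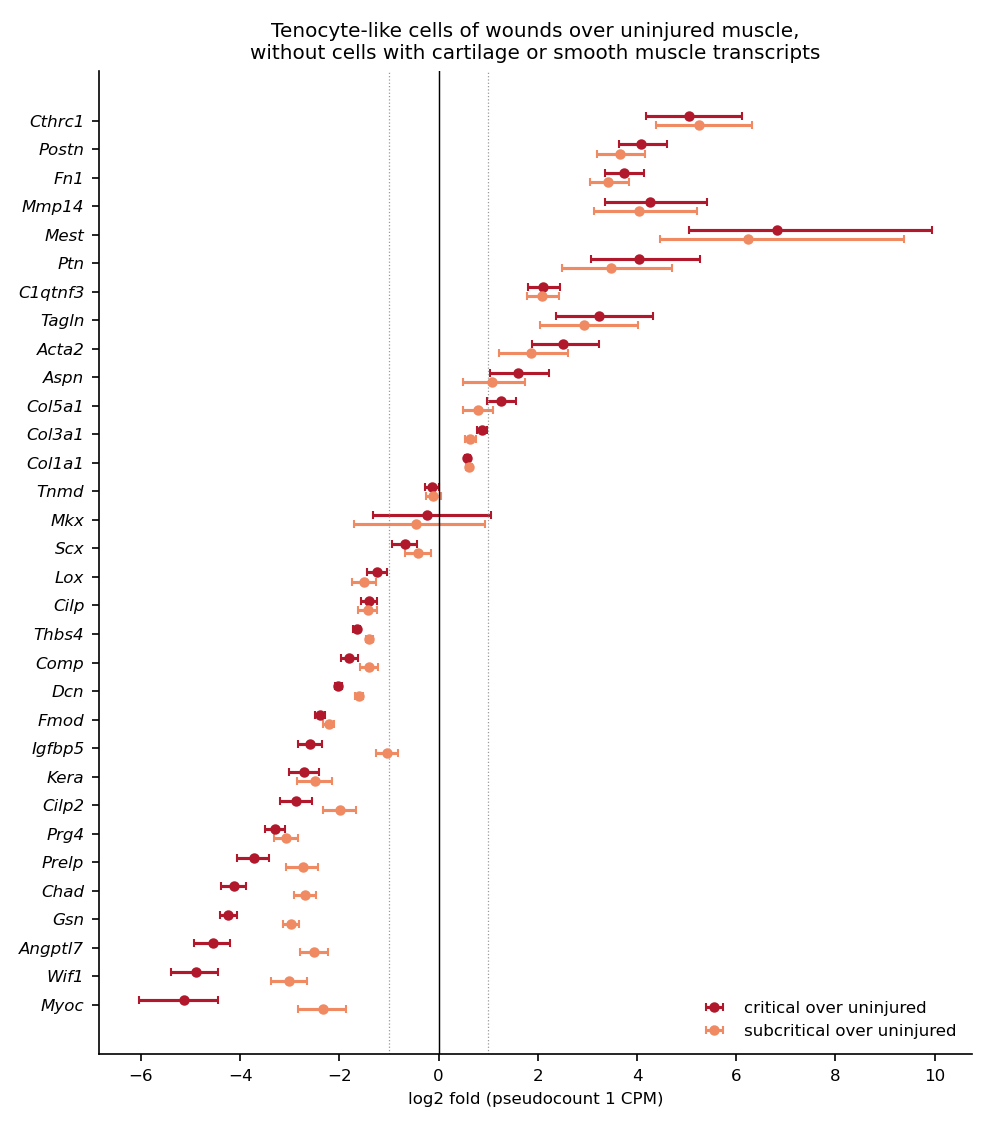
Log2 fold of 32 genes in critical over uninjured (upper marker of each row) and subcritical over uninjured (lower marker) remaining members, with exact binomial intervals of counting error and dotted lines at 2-fold. Wound matrix genes lie to the right, Chad, Prelp and other matrix genes to the left, and Tnmd close to 0.

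Genes of mitosis were counted in some of the wounded cells. A cell was counted when 8 mitotic genes together gave at least 3 UMIs. This held for 21 of 180 critical remaining members, 11.7% (7.37 to 17.3), 12 of 132 subcritical, 9.09% (4.79 to 15.3), and 0 of 19 uninjured, which allows a share of up to 17.6%. With 19 uninjured cells a difference in this share was not detectable. At least 3 UMIs of the wider list of 20 proliferation genes were found in 58.3% of critical, 45.5% of subcritical and 52.6% of uninjured remaining members, and in 34.8%, 34.1% and 12.5% after thinning to 2244 UMIs. Fibroblast-like cells gave 13 of 207, 10 of 151 and 0 of 79, at lower depth (medians of 2805, 2229 and 4316 UMIs). Stathmin (Stmn1), a microtubule regulator of dividing cells, was at 142 and 119 CPM against 0 in uninjured members, at least 8.81-fold and 7.40-fold higher. Ube2c, needed to leave mitosis, was at 148 and 201 CPM against 0, at least 9.18-fold and 12.5-fold. Of 20 proliferation genes, 9 of 12 measured were higher and 0 lower in critical over uninjured members, and 7 of 7 higher in subcritical, with medians of 1.85 and 2.83 when genes at 0 are put at their bound. Without the cells set aside 9 of 12 and 5 of 7 were higher, 0 lower, with medians of 1.57 and 2.24. Uninjured members held 96 UMIs of the 20 proliferation genes, 12 of which were at 0 there. Critical members held 1561 and subcritical members 857 UMIs of them. The UMI filter thus took in these genes mainly through the wounded members, and a gene lower in the wounds could hardly be counted. The counts of proliferation genes are therefore description only.

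Secreted regulators were uneven. Wif1, which binds and blocks Wnt proteins, was at 57.9, 214 and 1734 CPM in the remaining members, log2 −4.88 (−5.38 to −4.45) and −3.01 (−3.39 to −2.65). Of 17 Wnt and BMP antagonists, 2 were higher and 3 lower of 7 in critical, and 1 higher and 4 lower of 5 in subcritical over uninjured remaining members (3 and 4 of 8, and 1 and 3 of 6, over all members). Among IGF binding proteins, Igfbp5 was at 367, 1080 and 2222 CPM (log2 −2.59 and −1.04) and Igfbp6 at 893, 1122 and 4965 CPM (log2 −2.47 and −2.14). Igfbp4 was higher, at 1838, 1742 and 554 CPM (log2 1.73 and 1.65), and so was the growth factor midkine (Mdk), at 235, 304 and 48.8 CPM (log2 2.24 and 2.61). Insulin-like growth factor 1 (Igf1) itself was at 1281, 1051 and 1131 CPM, log2 0.18 and −0.11. Of 25 listed growth factors and binding proteins, 4 were higher and 3 lower of 12 in critical over uninjured remaining members. In subcritical over uninjured 4 were higher and 2 lower of 12 (4 and 2, and 3 and 1, over all members). Both lists stand beside 17.7% and 12.5% of all genes higher and 7.60% and 6.75% lower in the remaining members.

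TGF-beta signals are known to induce Scx in tendon. Their genes showed no common direction here. Tgfb3 was at 171, 167 and 89.5 CPM in the remaining members, log2 0.93 (0.05 to 1.97) and 0.89 (−0.02 to 1.97). The coreceptor Tgfbr3 was lower, at 105, 106 and 391 CPM, log2 −1.88 and −1.87. Of 23 pathway genes, 3 were higher and 3 lower of 15 in critical, and 3 higher and 2 lower of 14 in subcritical over uninjured remaining members. Over all members 4 were higher and 2 lower of 17, and 5 higher and 1 lower of 14. With 15.7% and 11.4% of all genes higher and 8.24% and 7.97% lower over all members, these counts are description only.

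Genes of resting fibroblasts were lower in the wounded cells, and this was not particular to members. The 16 resting interstitial genes summed to 5802, 7694 and 14472 CPM in the remaining members. In fibroblast-like cells they summed to 9823, 12165 and 55879 CPM. The 13 complement genes also fell in fibroblast-like cells, at 3303, 3958 and 6998 CPM. Gelsolin (Gsn), which severs actin filaments, was at 454, 1089 and 8579 CPM in the remaining members, log2 −4.24 (−4.41 to −4.07) and −2.98 (−3.14 to −2.82). Myocilin (Myoc), a secreted glycoprotein, was at 20.1, 146 and 741 CPM, log2 −5.14 and −2.33. Complement C3 was at 88.6, 170 and 928 CPM, log2 −3.37 and −2.44, and the C1 inhibitor Serping1 at log2 −1.79 and −1.33. Of 16 resting interstitial genes, 0 were higher and 5 lower of 9 in critical and 0 higher and 5 lower of 7 in subcritical over uninjured remaining members. Over all members the counts were 0 and 7 of 11, and 1 and 5 of 10. Among all genes 7.60% and 6.75% were lower in the remaining members, and 8.24% and 7.97% over all members.

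Interferon-response genes were higher in part, 5 of 10 in critical and 3 of 8 in subcritical over uninjured members, with 0 lower. In the remaining members 4 were higher and 1 lower, and 3 and 0. All genes gave 15.7% higher and 8.24% lower in critical, and 11.4% and 7.97% in subcritical over uninjured members. Bst2, which tethers viruses to the cell, was at 363, 255 and 32.6 CPM in the remaining members, log2 3.44 and 2.93, and Isg15 was at 79.2, 84.9 and 16.3 CPM, log2 2.21 (0.37 to 5.36) and 2.31 (0.42 to 5.48), from 4 UMIs of Bst2 and 2 of Isg15 in uninjured cells. The 3 highest subcritical cells held 80.6% of Isg15. Immediate early genes, which also mark stress of digestion, were lower over all members, with 0 higher and 9 lower of 17 in either comparison. Among the remaining members 1 was higher and 1 lower of 17, and 3 higher and 0 lower of 15. Genes of protein folding and secretion showed little: 1 of 20 was past 2-fold higher and 0 lower in either comparison over all members, and 2 of 20 higher with 1 and 2 lower in the remaining members.

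Proteases, integrins and metabolism gave mixed counts, which are description only. They stand beside 15.7% of all genes higher and 8.24% lower in critical, and 11.4% and 7.97% in subcritical over uninjured members. Matrix proteases and their inhibitors had 6 higher and 2 lower of 13 in critical and 6 and 2 of 12 in subcritical over uninjured members, among them Mmp2 at 1639, 2180 and 677 CPM (log2 1.27 and 1.69) and Timp1 at 1065, 1404 and 371 CPM (log2 1.52 and 1.92). Integrins and mechanosensing genes had 3 and 5 of 16, and 2 and 2 of 13, with the caveolin Cav1 at 99.8, 81.9 and 322 CPM (log2 −1.68 and −1.96). Adipogenic genes had 2 and 2 of 8, and 2 and 2 of 7. Hypoxia and glycolysis genes had 0 and 2 of 13, and 0 and 1 of 10. Over the remaining members the counts were 3 and 0 of 13, and 4 and 2 of 12, for proteases, and 2 and 4 of 15, and 2 and 3 of 13, for integrins. They were 2 and 2 of 8, and 2 and 2 of 6, for adipogenic genes, and 2 and 1 of 10, and 1 and 1 of 10, for hypoxia and glycolysis.

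The critical and subcritical libraries differed in few genes. Genes past 2-fold, 3.58% of those tested, included several that were also lower than in uninjured members. Angptl7 was lower in critical members (96.3 against 400 CPM in subcritical members), log2 −2.04 (−2.45 to −1.67), as were Wif1 (65.7 against 218 CPM), log2 −1.71 (−2.23 to −1.23), and Igfbp5 (366 against 1071 CPM), log2 −1.55 (−1.76 to −1.34). Gsn was at 507 against 1137 CPM, log2 −1.16 (−1.35 to −0.97), and Myoc at 27.0 against 164 CPM, log2 −2.56 (−3.35 to −1.90). The chemokine Cxcl14 was at 39.9 against 157 CPM, log2 −1.95, and the Wnt antagonist Dkk2 at 14.1 against 53.8 CPM, log2 −1.86. Chad differed less over all members (log2 −0.66) than in the remaining members, where it was at 215 against 580 CPM, log2 −1.43.

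Some of these differences rested on few cells. Angptl7, a gene that chose the members, had 70.2% of its subcritical UMIs in 3 cells. The highest of these cells had 69 UMIs of it and 96 of Thbs4. It had 1 UMI of Fmod and 0 of Tnmd, Chad, Kera and Scx, and was not set aside. The collagenase Mmp13 was at 148 CPM in critical and 487 in subcritical members, but 3 cells held 64.3% and 98.6% of it. The chemokine Ccl8 was at 23.5 against 211 CPM, with 96.7% in 3 subcritical cells. Neither Tnmd (log2 −0.02, −0.11 to 0.07) nor Cthrc1 (−0.21, −0.30 to −0.11) nor Col1a1 (−0.03) passed 2-fold between the wounds. Of 21 activated wound fibroblast genes 0 were higher and 1 lower in critical over subcritical members. Of 9 resting interstitial genes 0 were higher and 3 lower. Among all genes 2.29% were higher and 1.29% lower in critical over subcritical members.

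Within the wounds, Chad and the wound genes did not sit evenly in the same cells. The remaining members of the wounded libraries were split, after values were seen, into those with at least 2 UMIs of Chad (27 critical and 27 subcritical) and those with none (144 and 94). The remaining 9 and 11 cells with 1 UMI lie at the limit and were left out. Chad is itself one of the genes that chose the members, and a cell without it had to reach 3 UMIs with Tnmd, Kera or Angptl7, so these values are a description. Cells with Chad were shallower, with medians of 2979 and 2003 UMIs against 4862.5 and 3359 UMIs in cells without it.

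Cells with Chad had more of several genes that the rule did not use and that were higher in uninjured members. In the critical library Wif1 was at 459 CPM in cells with Chad against 1.39 CPM (1 UMI) in cells without, log2 7.59 (5.82 to 13.71), and in the subcritical library at 1143 against 35.0 CPM, log2 4.99 (4.11 to 6.09). Cilp2 was at 1153 against 56.9 CPM in the critical library, log2 4.32 (3.81 to 4.89), and at 1476 against 102 CPM in the subcritical, log2 3.84 (3.27 to 4.48). Igfbp5 was at 2204 against 118 CPM and at 3559 against 579 CPM. Comp was at 2643 against 662 CPM and at 3762 against 640 CPM. Gsn was at 1337 against 321 CPM and at 4123 against 481 CPM.

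Cells with Chad had less of several wound genes. Postn was at 2173 CPM in cells with Chad against 5617 in cells without in the critical library, log2 −1.37 (−1.58 to −1.17), and at 897 against 4473 CPM in the subcritical, log2 −2.32 (−2.71 to −1.95). Mest was at 418 against 2207 CPM, log2 −2.40 (−2.88 to −1.95), and at 57.9 against 1703 CPM, log2 −4.86 (−6.76 to −3.51). Col5a1, Ptn and Col14a1 were lower by log2 −1.28 and −1.65, −1.66 and −2.16, and −1.61 and −1.91. Cells with at least 3 mitotic UMIs numbered 0 of 27 and 1 of 27 with Chad, against 21 of 144 and 11 of 94 without, and the shallower cells give fewer mitotic UMIs.

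Some cells with Chad also had wound genes. Summed, their Cthrc1 stood at 2143 CPM (critical) and 1722 CPM (subcritical), against 2823 and 3295 CPM in cells without Chad and 81.4 CPM in all uninjured remaining members. Few cells carried this level: 13 of 27 critical and 15 of 27 subcritical cells with Chad had no Cthrc1, and the 4 highest held 51.0% and 68.1% of its UMIs. At least 2 UMIs of both Chad and Cthrc1 were found in 13 of 182 critical members, 7.14% (3.86 to 11.9). In subcritical members they were found in 11 of 134, 8.21% (4.17 to 14.2), and in uninjured in 1 of 27, 3.70% (0.0937 to 19.0). These intervals overlapped. Fn1 (log2 0.20 and −0.07), Scx (0.37 and 0.08) and Col1a1 (0.20 and 0.38) differed by less than 2-fold between the 2 kinds of cell in either library.

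**Figure D4:**
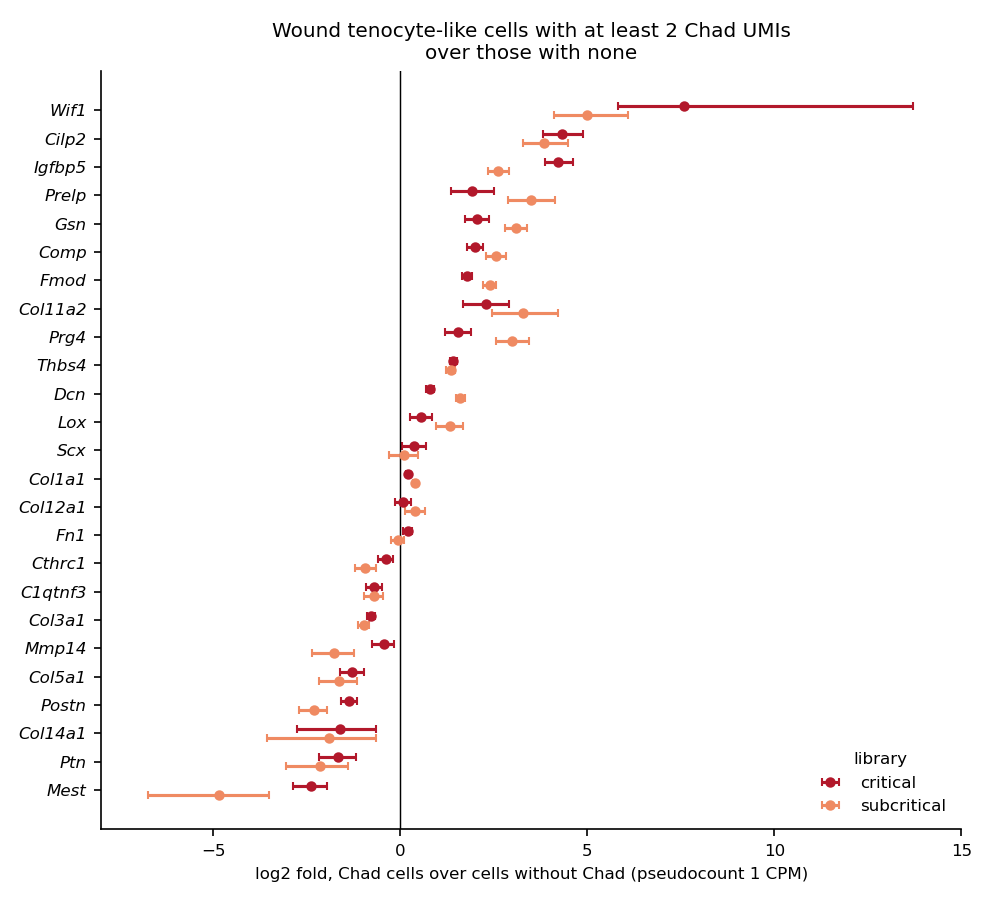
Log2 fold of 25 genes in the remaining members of the wounded libraries with at least 2 UMIs of Chad over those with none, in the critical library (upper marker of each row) and the subcritical library (lower marker), with exact binomial intervals of counting error. Wif1, Cilp2 and Igfbp5 lie far to the right, Scx, Col1a1 and Fn1 near 0, and Postn, Ptn and Mest to the left in both libraries.

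Set against fibroblast-like cells of the same library, tenocyte-like cells were marked by tendon matrix and by the lack of genes of other fibroblasts. All these genes come from the cells that were chosen by transcripts, so they describe the 2 classes and test nothing. Past 2-fold were 11.7% of 6007 genes in the critical library (4.01% higher and 7.71% lower in members), 11.1% of 3688 in the subcritical (4.58% and 6.51%) and 22.4% of 2827 in the uninjured (7.53% and 14.9%). These values are over all members. For the remaining members 11.7% of 5993 genes passed (3.95% higher and 7.78% lower), 10.9% of 3678 (4.57% and 6.31%) and 23.7% of 2540 (6.50% and 17.2%). Of 2602 genes measured in the 3 libraries, 43 were higher and 97 lower in members in each of them.

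Among the higher genes, Scx was at 829, 996 and 886 CPM in members against 30.6, 25.4 and 0 CPM in fibroblast-like cells. The log2 fold was 4.71 (4.12 to 5.48) and 5.24 (4.36 to 6.43) in the wounded libraries, and at least 106-fold in the uninjured one. Wif1 was not counted in any fibroblast-like cell set and was at least 14.3-fold, 25.7-fold and 158-fold higher in members. Cilp2 was higher by log2 6.32 (4.54 to 12.35) and 5.72 (4.07 to 9.01), and at least 145-fold in the uninjured library. Col11a1, a collagen that starts fibrils in cartilage and growing tendon, was at 598, 470 and 876 CPM against 90.4, 73.3 and 0 CPM, log2 2.71 (2.33 to 3.14), 2.66 (2.09 to 3.33) and at least 104-fold. Thbs4 was at 6724, 8000 and 14181 CPM against 1366, 1971 and 171 CPM, log2 2.30, 2.02 and 6.37. C1qtnf3 was at 3045, 2994 and 467 CPM against 594, 561 and 14.0 CPM, log2 2.36, 2.41 and 4.97. Ecrg4, a secreted peptide precursor, was higher by log2 2.84, 2.52 and 9.72 (7.67 to 15.46, from 1 UMI in uninjured fibroblast-like cells), and Abi3bp, a matrix protein, by 2.40, 2.58 and 1.86.

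Among the remaining members, Scx was at log2 4.72, 5.25 and at least 160-fold, Cilp2 at log2 6.25, 5.73 and at least 167-fold, Wif1 at least 12.6-fold, 25.4-fold and 207-fold, and Col11a1 at log2 2.70, 2.63 and at least 49.5-fold. Thbs4 was at log2 2.31, 2.03 and 6.95, C1qtnf3 at 2.36, 2.42 and 5.57, Ecrg4 at 2.80, 2.49 and 8.95 (6.89 to 14.70), and Abi3bp at 2.40, 2.59 and 2.34. The uninjured values are those that moved with the cells set aside.

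The gap for Thbs4, Ecrg4 and C1qtnf3 was smaller in the wounds, where fibroblast-like cells held more of these genes than in uninjured muscle. Postn was at like levels in the 2 classes of the critical library, 5103 CPM in members against 5012 CPM in fibroblast-like cells (log2 0.03, −0.04 to 0.09). Cthrc1 was higher in members, at 2690, 3102 and 53.7 CPM against 1078, 1190 and 5.59 CPM, log2 1.32 (1.20 to 1.44), 1.38 (1.22 to 1.54) and 3.05 (1.03 to 6.49), the last being 3.64 in the remaining members. Acta2 was also higher in members of the wounded libraries, log2 1.62 and 1.81. In the uninjured library Lox was at 1375 CPM in members against 39.1 CPM in fibroblast-like cells, log2 5.10 (5.68 in the remaining members), and in the wounded libraries at 865 and 723 against 535 and 423 CPM, log2 0.69 and 0.77.

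Among the lower genes were those of the progenitor fibroblasts that surround vessels and muscle. Pi16 was at 5.87, 7.02 and 80.6 CPM in members against 457, 279 and 760 CPM in fibroblast-like cells, log2 −6.06 (−7.91 to −5.04), −5.13 (−7.62 to −3.72) and −3.22 (−4.10 to −2.49). Clec3b, a plasminogen-binding lectin, was at log2 −3.22, −3.43 and −3.78. The complement factor Cfb was at log2 −3.77, −3.54 and −3.64 (−6.84 to −1.83), from 2 UMIs in uninjured members. The chemokine Ccl11 was at 3.52, 4.68 and 0 CPM against 56.7, 104 and 665 CPM, log2 −3.67 (−6.35 to −2.35), −4.21 (−7.58 to −2.52) and at least 41.3-fold lower. The surface antigen Ly6a was at 348, 400 and 376 CPM against 1967, 2027 and 2765 CPM, log2 −2.50, −2.34 and −2.88. Of 17 genes of tendon sheath and progenitor fibroblasts, the critical library had 0 higher and 13 lower of 17 measured, the subcritical library 0 and 10 of 15, and the uninjured library 2 and 11 of 16. Of 16 resting interstitial genes, 0 were higher and 13 lower in each library, of 14, 14 and 16 measured. Of 13 complement genes 1 and 9 of 10, 0 and 7 of 8 and 1 and 7 of 10 were higher and lower. For the remaining members the wounded counts were equal, and the uninjured ones were 2 and 11 of 16, 0 and 12 of 16 and 0 and 6 of 10. Their uninjured log2 folds were −2.63 for Pi16, −3.18 for Clec3b and −3.08 for Cfb, and Ccl11 was at least 27.2-fold lower. By these counts members had less of these fibroblast genes in wounded and uninjured muscle alike. Among all genes 7.71%, 6.51% and 14.9% were lower in members than in fibroblast-like cells, and 4.01%, 4.58% and 7.53% higher.

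**Figure D5:**
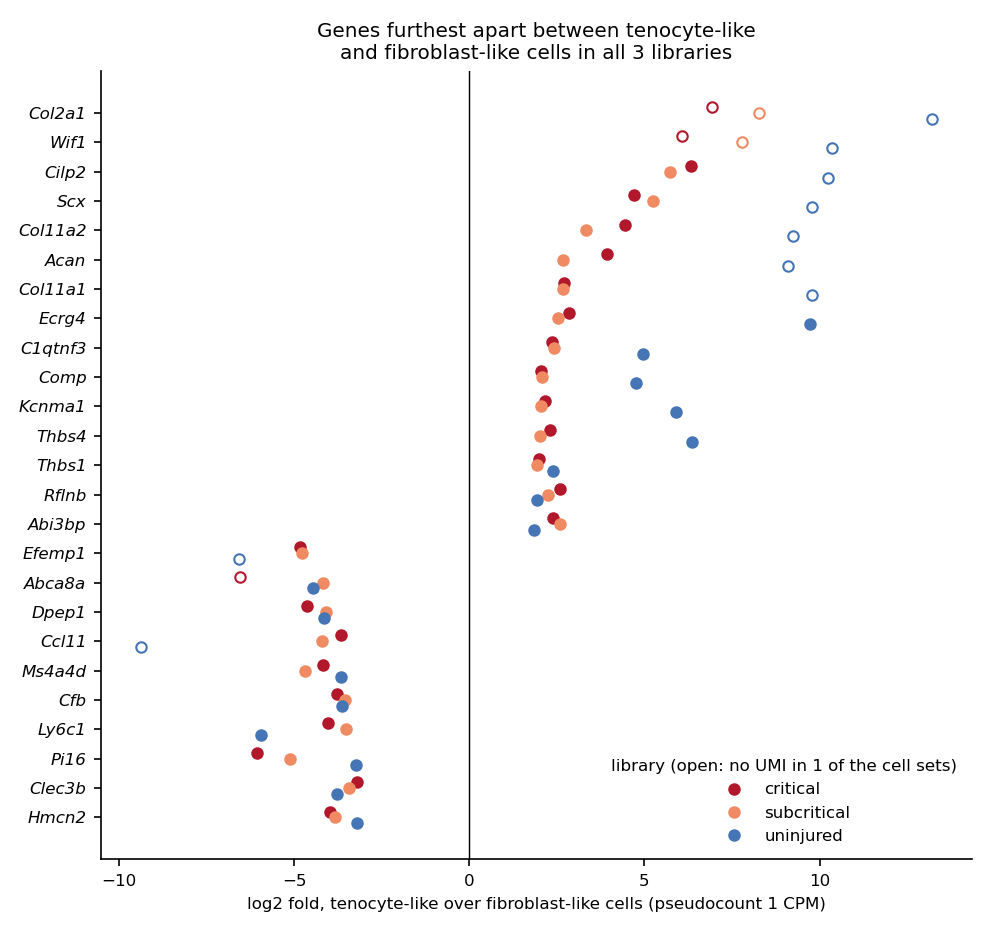
Log2 fold of 25 genes in tenocyte-like over fibroblast-like cells of the same library, with 1 marker for each of the critical, subcritical and uninjured libraries; open markers stand for genes with no UMI in 1 of the cell sets. The upper genes were higher in members in the 3 libraries (Scx, Cilp2, Thbs4) and the lower genes were lower in all 3 (Pi16, Clec3b, Cfb).

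Collagen genes were compared with those of fibroblast-like cells between wounded and uninjured muscle. In fibroblast-like cells Col1a1 was at 25177 CPM in critical, 23120 in subcritical and 5656 in uninjured cells, while the remaining members had 35713, 36469 and 23906 CPM. Of the collagen chains, 11 of 15 were past 2-fold higher in critical and 8 of 14 in subcritical over uninjured fibroblast-like cells, against 4 of 16 and 4 of 17 in the remaining members. Over all genes 17.4% of 4888 (9.17% higher and 8.27% lower) and 15.2% of 3618 (6.44% and 8.73%) were past 2-fold in fibroblast-like cells, beside 17.7% and 12.5% higher in the remaining members. The difference between the classes was not tested.

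Markers of other cells were summed over the members. The 10 macrophage markers came to 380, 412 and 183 CPM, of which Apoe gave 188, 239 and 172, with 0, 2 and 7 of the markers at 0. Lyz2, a macrophage lysozyme, was at 89.2, 63.2 and 0 CPM, and so moved with the wounds. The 10 endothelial markers summed to 185, 201 and 102 CPM, with 2, 2 and 5 at 0, and 10 muscle fibre markers to 30.5, 18.7 and 26.9 CPM. Mural markers summed to 202, 185 and 1316 CPM, and to 203, 186 and 285 CPM in the remaining members, where the smooth muscle cells were set aside. The 10 Schwann cell markers summed to 209, 288 and 548 CPM, mostly from Pmp22 and Ncam1, and the defining marker Sox10 was at 0 in the remaining members of the 3 libraries. The 10 markers of endoneurial fibroblasts summed to 373, 676 and 2074 CPM, mostly from Wif1 and Crispld2, so that this list moved with Wif1. Neutrophil markers summed to 23.5, 44.4 and 37.6 CPM, with 7, 6 and 6 of 10 at 0. The part of such cells in the results was not tested.

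Surface proteins were read with 138 antibodies, at few counts per cell: a median of 36, 52 and 39 in the remaining members, 38, 51 and 32 in fibroblast-like and 133.5, 198 and 242 in endothelial-like cells. Between the remaining members and fibroblast-like cells, 2.83% of 106 measured antibodies were past 2-fold higher in the critical library, 4.76% of 105 in the subcritical and 3.51% of 57 in the uninjured one. Lower were 1.89%, 4.76% and 10.5%. Of 57 antibodies measured in the 3 libraries, 1 was higher in each, CD73, and 0 were lower. CD73 is the enzyme, encoded by Nt5e, that makes adenosine outside the cell, and a marker of stromal cells. It was singled out after its values were seen.

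Anti-CD73 gave 94.9 (76.8 to 116), 121 (99.3 to 146) and 368 (251 to 518) counts per 10000 antibody counts in the remaining members, against 31.5, 58.0 and 59.5 in fibroblast-like and 33.0, 32.2 and 33.7 in endothelial-like cells. Over fibroblast-like cells the log2 fold was 1.59 (0.99 to 2.24), 1.06 (0.60 to 1.54) and 2.63 (1.78 to 3.50). In the uninjured library 3 cells held 74.2% of its 31 counts, against 19.1% and 26.4% in the wounded libraries. The transcript Nt5e gave 13, 9 and 6 UMIs in the remaining members and 3, 0 and 2 UMIs in fibroblast-like cells. The 3 isotype controls, antibodies with no target, gave 50.5, 69.7 and 119 counts per 10000 in the remaining members, so CD73 stood above this sum in each library.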

How the data were processed

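Single cells of quadriceps muscle were stained with hashtag antibodies and a cocktail of surface antibodies and run on the 10x 5′ v2 chemistry, per the labels' protocols. The deposited matrices hold raw UMI counts per gene or antibody and barcode, written by cellranger 6.0.2 per the file headers. Cell Ranger, bcl2fastq and the build GRCm39 are named in the submitters' processing notes. Further filters on barcodes are not given in the sources used here.

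Members, fibroblast-like, endothelial-like and macrophage-like cells were chosen by UMIs as stated in the text. UMIs were summed per library and class, since cells are not replicates, and scaled to CPM of gene UMIs. Log2 folds used a pseudocount of 1 CPM and genes with at least 30 UMIs over both sums. Intervals are exact at 95% (Poisson for CPM, binomial for shares and folds), and 3 counts stand in for 0 in bounds, per group. With 1 library per group no test was made, and edgeR sums per animal were not made because hashtags marked 7, 4 and 0 members. No doublet caller was run. Members had median hashtag counts of 1, 2 and 0, so that 0 members carried 2 hashtags says nothing about doublets. Cells with at least 1000 antibody counts were left out of antibody sums. Named genes were the 12 highest and 12 lowest in each comparison of groups, the 15 highest and 10 lowest against fibroblast-like cells, the rule genes and members of the fixed lists. The members and the gene lists were chosen with earlier results of these data known, and the cells set aside and the division by Chad followed from the values. Promoter windows came from RefSeq (GRCm38.p6), matched by symbol, while counts used GRCm39. The alternatives covered the pseudocount, scaling, gene filter, member thresholds, cell weights and the highest cells. Python 3.11.15 with numpy 2.4.6, scipy 1.17.1 and matplotlib 3.10.9 was used, and the scripts were tested on simulated data.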

Additional observations from a re-analysis of the deposited data

How the results depend on the processing

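Each group was 1 library, so depth and number of cells limit every value, the 27 uninjured members most of all, and animals cannot be told apart. No paired analysis was possible because each group held 1 library and no test was made. Of 18 alternative shares, 14 lay within the counting interval. Among them were those that left out cells with 2 hashtags, which removed 0 members and so could hardly move. With a minimum of 1000 UMIs per barcode the share of members was 7.83% in critical and 7.02% in subcritical muscle. With at least 5 summed UMIs it was 3.62% in subcritical muscle, and with no Fmod requirement 1.87% in uninjured muscle.

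Counts of genes past 2-fold followed the filter by construction. With at least 100 UMIs they were 320 in critical over uninjured (61.6% higher), 180 in subcritical over uninjured (50.6%) and 28 in critical over subcritical members (42.9%). With no filter they were 6756, 5915 and 3970. Against fibroblast-like cells they were 226, 130 and 203 with at least 100 UMIs. A pseudocount of 5 CPM gave 107 in critical over subcritical members. With the 3 highest cells of each library left out for each gene, 1673 genes passed in critical over uninjured members, 96.3% of them higher instead of 65.6%. For subcritical over uninjured the higher share was 95.1% instead of 58.8%, and for critical over subcritical 84.9% instead of 64.0%. This removes 3 of 27 uninjured but 3 of 182 critical cells, so it lowers uninjured levels by construction. Under it Tnmd was at log2 1.38 and 1.36 and Scx at 1.11 and 1.39 over uninjured members, while Chad stayed lower (−4.28 and −3.07). Without the cells set aside, 70.0% and 65.0% of genes past 2-fold were higher in the comparisons with uninjured muscle.

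Of 167 folds past 2-fold among genes named in the text, 134 were still past 2-fold the same way with the 3 highest cells left out, 167 with median-of-ratios scaling (which moved all folds by at most 0.019), 156 with at least 5 summed UMIs and 143 without the cells set aside. Reversals were as follows. With the 3 highest cells left out, with at least 5 summed UMIs and without the cells set aside, Acta2 was at log2 3.78, 2.90 and 2.51 in critical and 2.91, 2.39 and 1.87 in subcritical over uninjured members, and Tagln at 4.46, 3.36 and 3.24, and 4.14, 3.18 and 2.92. Without the cells set aside, Col2a1 was at 0.61 and 0.48, Acan at 3.28 and 2.97 and Sox9 at 2.13 and 2.32, and the median of cartilage genes was 2.70 and 1.86. The immediate early median was 0.35 in subcritical over uninjured. With the 3 highest cells left out, Acan was at 0.88 and 0.47 and Eln at 0.78 in subcritical over uninjured. In critical over subcritical, Col2a1 was at 0.16 and, without the cells set aside, 0.13, Mmp13 at 2.75 and Ccl8 at 0.20. Other values moved without reversing: 247 of 1140 gene folds and 25 of 189 list medians.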
